A study of Mus musculus with 2 samples.

Results

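Solute carriers are membrane proteins that move small molecules across the plasma membrane and the membranes of organelles. Those expressed by donor T cells recovered after allogeneic transplantation were examined. Members were every gene whose symbol begins with Slc and a digit, except Slc16a1, Slc16a3, Slc2a1 and Slc2a3, with at least 1000 unique molecular identifiers (UMIs, each standing for 1 captured mRNA molecule) summed over both libraries. Of 376 such symbols, 4 were left out by name, 78 had 0 UMIs, 184 had at least 1 but fewer than 1000 and 110 were members. They included 10 genes of the amino acid families Slc1, Slc3, Slc7 and Slc38, 28 genes of the mitochondrial family Slc25 and 72 genes of other families. The members were thus chosen by their summed UMIs, so their abundance is given here as a description. Just inside the limit were Slc25a53 with 1066 UMIs, Slc15a3 with 1060, Slc35f6 with 1051 and Slc4a8 with 1019, and just outside it were Slc12a7 with 994, Slc10a3 with 973, Slc25a25 with 934 and Slc25a22 with 932. The symbol rule also took in 4 genes that are not carriers: Slc9a3r1, which encodes the scaffold protein NHERF1, Slc4a1ap, which encodes an adaptor protein, Slc7a6os, a neighbour of Slc7a6 on the opposite strand, and the antisense transcript Slc36a3os.

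Both libraries came from 1 model of acute graft-versus-host disease. Lethally irradiated BALB/c mice (8.5 Gy) received T cell-depleted bone marrow and splenic T cells from C57BL/6 mice. The animals were aged 6 to 12 weeks. Their sex is not settled, since the methods name females in 1 place and both sexes for all in vivo work in another. Donor T cells were sorted from recipient spleens as CD45+ H2Kb+ H2Kd- TCRβ+ cells. The groups were day +7 and day +14 after transplantation, with 1 single-cell library each. The number of T cells infused was 200000 by the sample labels and 700000 by a figure legend, where cells of 5 spleens were described as pooled. The labels call these cells naive, while that legend does not. The day was taken from each sample's title, since the protocol text of both samples describes the sort of day +7. Both library names also hold the term PBS, which the sources used here do not explain. All the T cells were thus recovered from irradiated allogeneic hosts, and no resting or syngeneic T cells are compared here. The sort marks the donor strain, which the marrow and the infused T cells shared. With 1 library for each day no test between days was possible, so a difference between libraries cannot be told apart from a difference between days.

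T cells that become activated need amino acids, nucleosides, metabolites and ions for growth and division, and solute carriers are the route by which most of these enter the cell or reach its organelles. Carriers of the Slc7 family that work as heterodimers need the heavy chain CD98, encoded by Slc3a2, to reach the plasma membrane. Carriers of the Slc25 family sit mostly in the inner mitochondrial membrane, where they exchange ADP, ATP, phosphate, aspartate, citrate and nucleotides with the cytosol. Zinc is moved by the Slc30 and Slc39 families, and the nucleotide sugars used for glycosylation are moved into the Golgi apparatus by the Slc35 family.

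After removal of barcodes with fewer than 500 or more than 7500 genes or over 15% mitochondrial UMIs, 7179 barcodes remained at day +7 and 7794 at day +14. Cells were taken as T cells by the mRNAs of 6 T cell receptor and CD3 genes, giving 6959 day +7 cells (82191244 UMIs in all, median 9181 per cell) and 7621 day +14 cells (82414008 UMIs, median 8196). Over all barcodes kept, before this gate, the 6 genes took 0.569% of UMIs at day +7 and 0.752% at day +14, so the defining markers of the labelled cell type were present. A Cd4 UMI without a Cd8a or Cd8b1 UMI defined 477 and 708 CD4 cells, and the opposite defined 5978 and 5994 CD8 cells. The CD4 cells had a median of 8295 UMIs at day +7 and 5323.5 at day +14, and the CD8 cells 9292 and 8623.5. Cells with UMIs of both kinds, left out of these gates, numbered 207 and 521, with medians of 17237 and 13700 UMIs. The part of these shifts in the day ratios of CD4 and CD8 cells was not tested. Of the T cells with at least 4000 UMIs, 4649 and 5211 had at least 3 of 20 cycle genes detected after thinning to 4000 UMIs (cycling), and 1321 and 822 had at most 1 (non-cycling). Marker sums of other lineages within the T cell gate were 64.8 and 57.6 CPM (UMIs of the gene scaled to 1000000 UMIs of the gate) for myeloid genes, 15.7 and 15.2 for erythroid genes, and 20.5 and 3.02 for B cell genes, the latter nearly all Cd79b. Between the libraries 20 barcodes were shared, and doublet detection marked 0 cells in either library, so doublets remain. Levels below are CPM of UMIs summed over the cells of a gate. The day ratio is the log2 of (day +14 CPM + 1) over (day +7 CPM + 1), and each bracketed interval is an exact binomial 95% interval, which covers counting error only and not the spread between animals.

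Before the values, the DNA upstream of 4 members is shown, because Slc16a11, Slc22a15 and Slc37a2 had the highest day ratios of the 110 members and Slc25a33 the lowest. Each run is the 250 bases before a RefSeq transcription start in GRCm38.p6, written 5′ to 3′ on the strand of the gene. Capitals mark a match to any of 3 motifs searched on both strands: CACGTG (the E-box bound by MYC and related factors), TGATGNAA (bound by ATF4) and CCGGAAG (bound by ETS factors).
Slc16a11, chr11:70213660-70213909, plus strand: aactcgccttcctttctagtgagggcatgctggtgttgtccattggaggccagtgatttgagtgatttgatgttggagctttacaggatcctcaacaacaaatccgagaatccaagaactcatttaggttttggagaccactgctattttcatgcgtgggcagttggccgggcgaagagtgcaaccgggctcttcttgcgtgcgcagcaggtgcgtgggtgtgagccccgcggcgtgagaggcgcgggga
Slc22a15, chr3:101924454-101924703, minus strand: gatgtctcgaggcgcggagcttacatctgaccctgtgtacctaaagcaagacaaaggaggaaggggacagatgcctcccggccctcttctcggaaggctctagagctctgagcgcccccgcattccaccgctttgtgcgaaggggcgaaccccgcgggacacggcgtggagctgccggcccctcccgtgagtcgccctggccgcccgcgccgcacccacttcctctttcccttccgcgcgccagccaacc
Slc37a2, chr9:37255739-37255988, minus strand: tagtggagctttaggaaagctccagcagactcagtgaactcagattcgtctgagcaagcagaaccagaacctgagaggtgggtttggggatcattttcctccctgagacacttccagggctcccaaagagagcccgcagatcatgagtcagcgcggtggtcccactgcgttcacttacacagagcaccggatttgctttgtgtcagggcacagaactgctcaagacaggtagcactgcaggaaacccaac
Slc25a33, chr4:149774268-149774517, minus strand: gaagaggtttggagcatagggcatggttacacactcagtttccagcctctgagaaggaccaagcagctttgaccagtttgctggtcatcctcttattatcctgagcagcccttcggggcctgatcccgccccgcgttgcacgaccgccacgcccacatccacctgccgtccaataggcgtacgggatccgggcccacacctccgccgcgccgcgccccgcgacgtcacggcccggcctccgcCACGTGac
None of the 3 motifs was found in the windows of Slc16a11, Slc22a15 and Slc37a2. The window of Slc16a11 lies inside the longer gene span given by GENCODE vM21 (chromosome 11, 70212752 to 70216417). The window of Slc25a33 held CACGTG close to the start. Promoter windows were matched for 83 of the 110 members. Within the full windows of 300 bases, CACGTG was found for 14.5% of these members, 12.4% of all genes with at least 1000 UMIs and 8.09% of all genes in the table. CCGGAAG was found for 30.1% of members, 25.1% of genes with at least 1000 UMIs and 9.93% of all genes, and TGATGNAA for 2.41%, 2.71% and 4.51%. A match is a run of letters and was not tested as a binding site.

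Members together made up 3430 CPM at day +7 and 3887 CPM at day +14 in T cells, a day ratio of 0.18 [0.17, 0.19]. The median T cell held 30 member UMIs at day +7 and 31 at day +14, with UMIs of 17 and 18 different members. Slc25a5, Slc25a3 and Slc25a4 held 42.5% of all member UMIs. The median member had 2229.5 UMIs, and Slc25a5 had the most at 110744. UMIs were not divided by transcript length, so they do not rank the levels of different genes. A median of 96.7% of a member's UMIs fell in T cells, with 88.3% for the lowest (Slc19a1, the reduced folate carrier), against 96.5% of all UMIs kept.

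**Figure D1:**
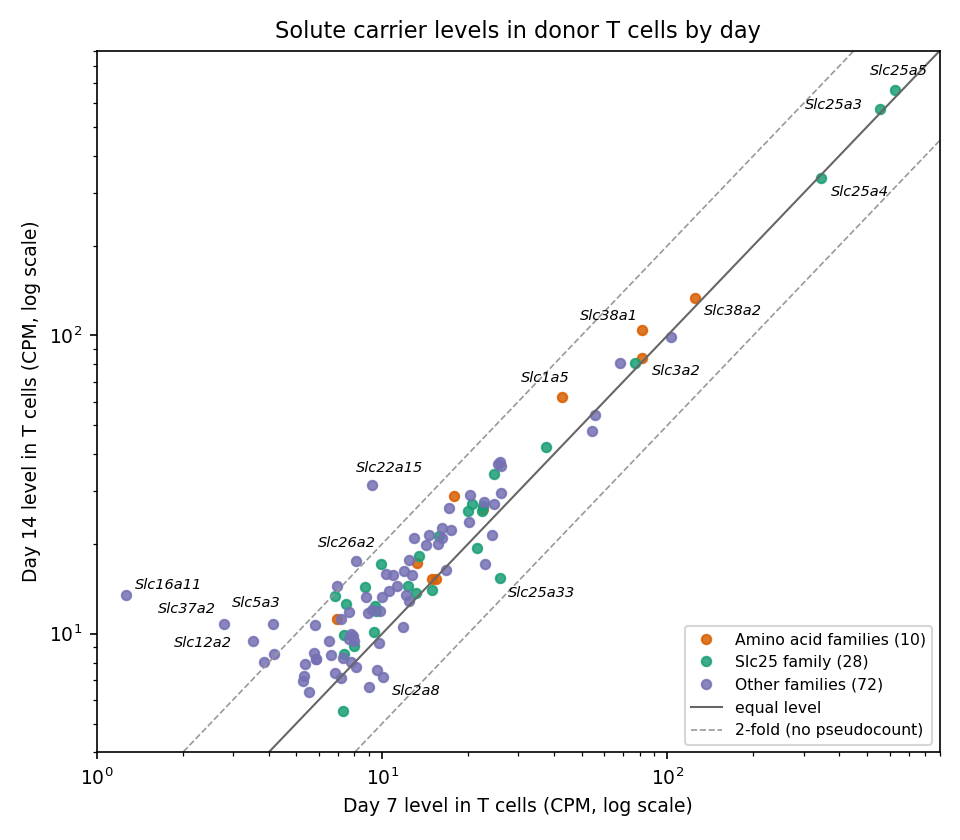
Level of each of the 110 members in T cells at day +7 (x axis) and day +14 (y axis), in CPM on log axes, with 1 point per gene coloured by family. The solid line marks equal levels and the dashed lines a 2-fold difference without pseudocount. Most points lie on or just above the line of equality, and Slc16a11 stands farthest from it, at 1.27 and 13.5 CPM.

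Carrier mRNA was on the whole slightly higher at day +14, with 6 members at least 2-fold higher, Slc16a11, Slc22a15, Slc37a2, Slc12a2, Slc5a3 and Slc26a2, and 0 at least 2-fold lower. The median day ratio was 0.33 over the 110 members and 0.20 over the 8178 genes with at least 1000 UMIs, so 0.20 is the level against which member ratios should be read. Of the members 71 (64.5%) lay above that all-gene median. The 6 higher members were 5.45% of members, against 2.4% of all 8178 genes, and the 0 lower members compare with 1.39% of all genes. These shares are a description, because the limit of 1000 UMIs was set on the sum of both days for members and for all genes. None of the 6 reached 1000 UMIs at day +7, where they had 104 to 787, so they passed the limit through their day +14 UMIs. With a limit of 3000 UMIs 1 of them, Slc22a15, was left. The day interval lay above 0 for 84 members (76.4%, against 66.5% of all genes) and below 0 for 12 members (10.9%, against 18.7%). All 6 of the members past 2-fold belonged to families other than Slc25 and the amino acid families. They were named after their values were seen, except Slc22a15, which the rule for named genes also took.

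Over all T cells, Slc25 members had the lowest and other families the highest day ratio, by sums and by medians. Amino acid members summed to 421 CPM on day +7 and to 497 on day +14 (day ratio 0.24 [0.22, 0.26]), and their median ratio was 0.28. Slc25 members summed to 1961 and 2084 CPM (0.088 [0.078, 0.10]), with a median of 0.20, the same as all genes. Members of other families summed to 1048 and 1306 CPM (0.32 [0.31, 0.33]), with a median of 0.35. Above the all-gene median lay 6 of 10 amino acid members, 14 of 28 Slc25 members and 51 of 72 others. Scaled by the median ratio of all genes, the 3 medians became 0.07, 0.0075 and 0.16. The amino acid median was also above the Slc25 median in CD4 (0.18 against 0.13) and CD8 cells (0.26 against 0.20). The same order was seen in cycling (0.23 against 0.20) and non-cycling cells (0.35 against 0.31). With these gates crossed, it held only in CD8 cycling cells (0.22 against 0.20). The medians were 0.22 against 0.25 in CD8 non-cycling, 0.11 against 0.26 in CD4 cycling and 0.11 against 0.24 in CD4 non-cycling cells. Without the 4 genes that are no carriers, the amino acid median (0.35) stood beside that of other families (0.36).

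**Figure D2:**
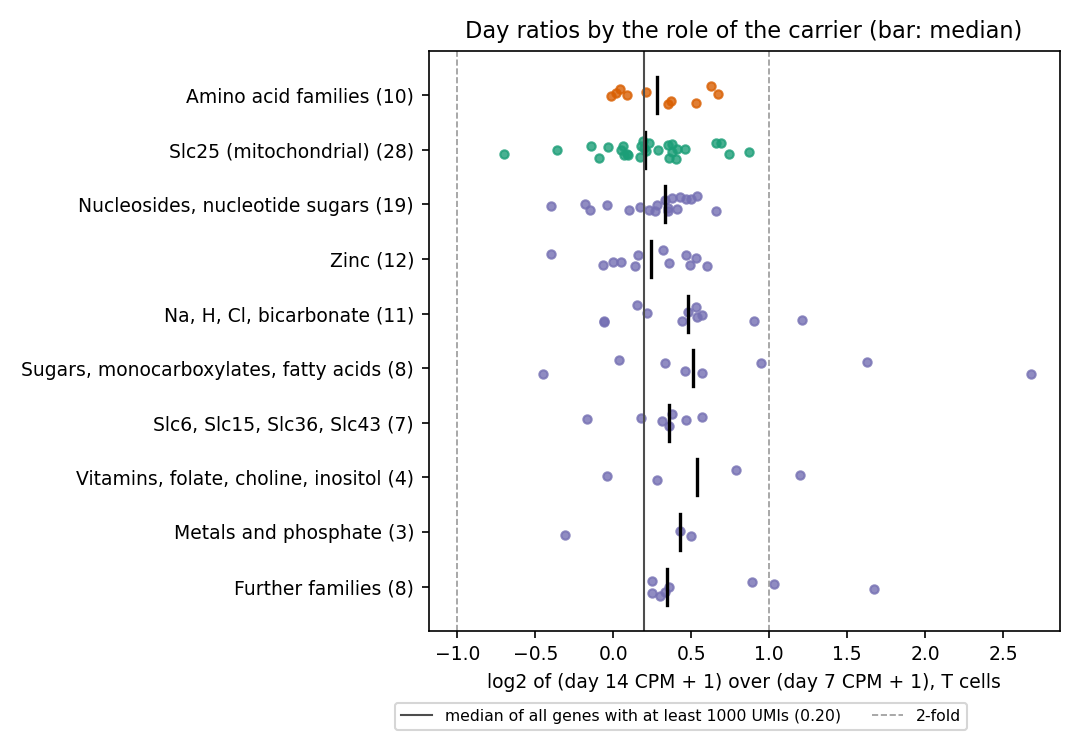
Day ratio in T cells (x axis, log2 of CPM + 1) of each member, with 1 row for each family or role and the number of members in parentheses. Short bars are medians, the solid line is the all-gene median of 0.20 and dashed lines mark 2-fold. The 28 Slc25 members centre on the all-gene line, and the members past 2-fold are spread over 4 of the rows below them.

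Slc16a11, which encodes a member of the monocarboxylate carrier family, had the highest day ratio of the members. It lies on chromosome 11 (70212752 to 70216417, plus strand). It was counted 104 times at day +7 and 1110 times at day +14, that is 1.27 CPM (1.03 to 1.53) and 13.5 CPM (12.7 to 14.3), with a day ratio of 2.68 [2.50, 2.85]. Thinned to 4000 UMIs, 0.498% of T cells (0.345 to 0.696) had a Slc16a11 UMI at day +7 and 4.78% (4.28 to 5.32) at day +14, with median depths of 9303 and 9204 UMIs before thinning. In erythroid and myeloid barcodes, which served as a measure of free RNA, 0 of 101 barcodes at day +7 and 0 of 49 at day +14 had a UMI, which allows shares of up to 2.97% and 6.12% (3 counts over the number of barcodes) or, by the exact binomial interval, 3.59% and 7.25%; their median depths were 28500 and 7563 UMIs. The day +14 share lay within what the second of these allows, while the level of the gene was 0 CPM in erythroid barcodes on both days and 0 and 2.22 CPM in myeloid barcodes. Without thinning, 1.1% and 10.3% of the T cells had a UMI.

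The level of Slc16a11 went from 1.28 to 13.8 CPM in CD8 cells and from 1.01 to 7.87 CPM in CD4 cells. In cycling cells it was 1.27 and 12 CPM, and in non-cycling cells 1.61 and 25.6 CPM. The intervals of the day ratio in cycling cells (2.52 [2.32, 2.72]) and in non-cycling cells (3.35 [2.80, 3.86]) did not overlap. Among CD4 non-cycling cells there were 0 UMIs at day +7 and 8 at day +14, so no ratio is given there. Its neighbour Slc16a13, another gene of the same family that lies 3′ of it on the opposite strand (70216789 to 70221064) and is under the limit for members, had 1.34 and 2.18 CPM with a day ratio of 0.45. Slc16a13 was looked at because of this position.

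Slc22a15, a carrier of zwitterions in the organic ion family, was the member with the next highest ratio and the only one of the 6 above 20 CPM. It lies on chromosome 3 (101855776 to 101924453, minus strand). T cells had 9.25 CPM at day +7 (760 UMIs) and 31.6 CPM at day +14 (2607 UMIs), a day ratio of 1.67 [1.56, 1.78]. CD4 cells stood above CD8 cells on both days, with 14.2 against 8.54 CPM and 54.5 against 28.3 CPM. Cycling and non-cycling cells were alike at day +7 (9.25 and 8.91 CPM) and apart at day +14 (28.2 and 49.6 CPM), so that the day ratio was 1.51 [1.39, 1.63] in the former and 2.35 [2.02, 2.69] in the latter. After thinning, 3.15% and 12% of T cells had a UMI, against 3.96% and 12.2% of the erythroid and myeloid barcodes. Those barcodes are not free of the gene, since myeloid barcodes held 32.1 and 39.9 CPM of it and erythroid barcodes 0. The share of T cells with a UMI was thus not above that in these barcodes. The myeloid marker sum within the T cell gate was 64.8 CPM at day +7 and 57.6 CPM at day +14, and its part in the result was not tested.

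Slc37a2, which exchanges glucose 6-phosphate for phosphate at the endoplasmic reticulum, had 2.80 CPM on day +7 against 10.8 on day +14, a ratio of 1.63 [1.46, 1.79]. Slc12a2, the sodium, potassium and chloride cotransporter NKCC1, had 3.52 and 9.48 CPM (1.21 [1.05, 1.37]). Slc5a3, the sodium and myo-inositol cotransporter, had 4.16 and 10.8 CPM (1.2 [1.04, 1.35]). The span of Slc5a3 overlaps that of Mrps6 on the same strand, so reads could be shared between them, and Mrps6 had 51.0 and 71.0 CPM with a ratio of 0.47. Slc26a2, a sulfate carrier, had 8.09 and 17.5 CPM (1.03 [0.91, 1.15]). With Slc26a2, the ratio was lower in cycling (0.84 [0.70, 0.97]) than in non-cycling cells (1.74 [1.33, 2.14]), as for Slc16a11 and Slc22a15. For Slc12a2 and Slc5a3 these intervals overlapped, at 1.16 [0.98, 1.33] and 1.25 [0.57, 1.88] for Slc12a2 and at 1.13 [0.96, 1.3] and 1.32 [0.78, 1.86] for Slc5a3.

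**Figure D3:**
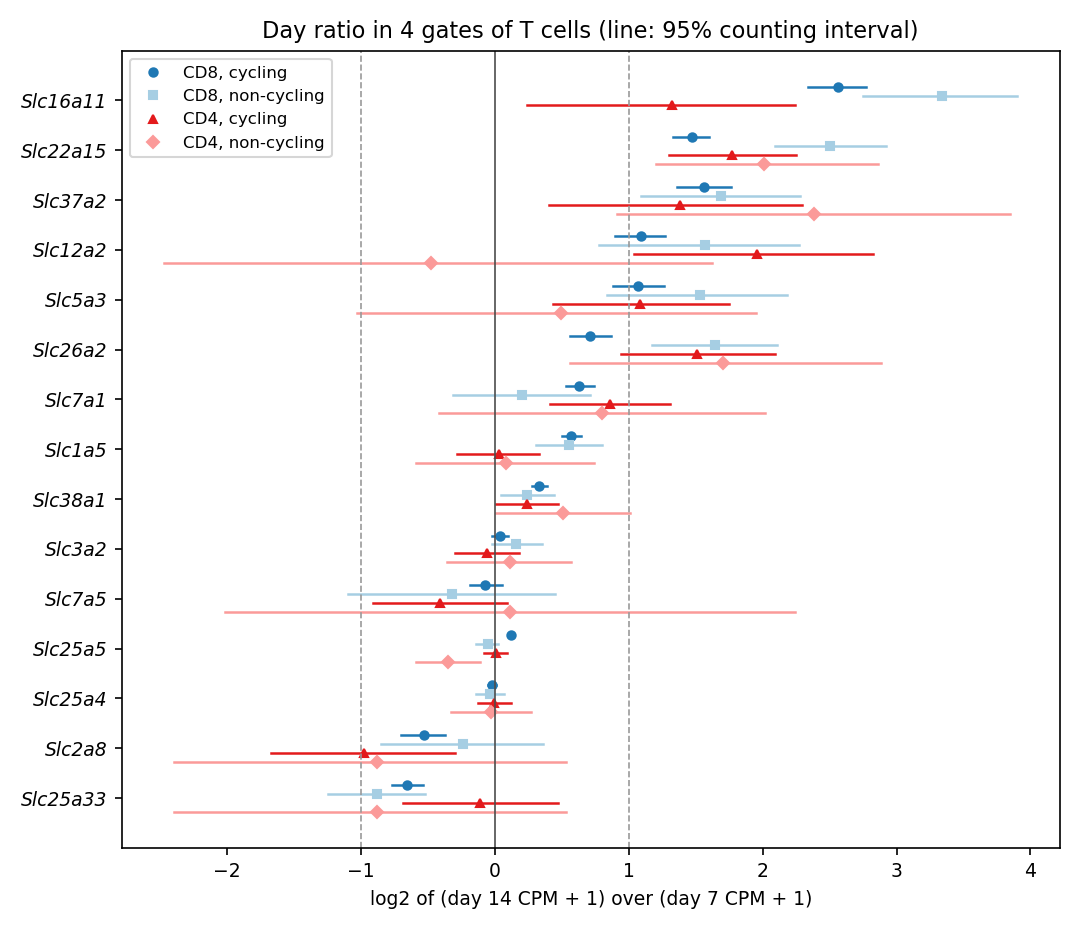
Day ratio (x axis, log2 of CPM + 1) of 15 members in CD8 cycling, CD8 non-cycling, CD4 cycling and CD4 non-cycling cells, with 1 marker per gate and lines for the 95% counting interval. Slc16a11 has no marker for CD4 non-cycling cells, where 0 UMIs were counted at day +7. Slc22a15 and Slc37a2 lie to the right of 1 in all 4 gates, while Slc25a4 lies at 0.

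Crossing CD4 and CD8 with cycling and non-cycling gave 4 gates, and 53 members (48.2%, against 37.7% of all genes) had a day ratio above 0 in all 4. These include Slc16a11, which had no UMIs in CD4 non-cycling cells at day +7, so only the direction counts there. Below 0 in all 4 were 6 members (5.45%, against 12.4% of all genes): Slc25a33, Slc25a4, Slc2a8, Slc35b1, Slc35c2 and Slc44a2. Slc12a2 was below 0 in CD4 non-cycling cells alone (-0.48 [-2.47, 1.62]), from 5 and 2 UMIs. The gates differ in precision, since CD4 non-cycling cells numbered 135 and 101 and CD8 cycling cells 4096 and 4356.

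Among the amino acid carriers, Slc7a1, Slc7a6, Slc1a5 and Slc38a1 were higher at day +14, while the leucine carrier Slc7a5 and its heavy chain Slc3a2 had ratios near 0 over all T cells. Slc7a1, the arginine and lysine carrier CAT1, had 17.8 CPM at day +7 and 28.9 CPM at day +14 (day ratio 0.67 [0.58, 0.76]), and its 4 gates all had ratios above 0. Slc1a5, the glutamine carrier ASCT2, had 42.8 and 62.3 CPM with a ratio of 0.53. The ratio of Slc1a5 was 0.57 [0.50, 0.64] in CD8 cells and 0.036 [-0.21, 0.28] in CD4 cells, intervals that did not overlap. Slc38a1, a sodium-coupled carrier of glutamine and other neutral amino acids, had 81.4 and 104 CPM (0.35), and ratios of 0.39 in CD4 and 0.34 in CD8 cells. Its close relative Slc38a2 had 125 and 133 CPM (0.086). Here it was the CD4 cells whose ratio was higher, 0.44 [0.28, 0.61] against 0.048 [0.0057, 0.091] in CD8 cells. This did not hold in non-cycling cells, with -0.18 [-0.63, 0.27] in CD4 and 0.043 [-0.11, 0.19] in CD8 cells. Over all T cells the ratio of Slc38a2 was 0.23 as a mean of per-cell CPM and 0.031 after thinning.

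The CD98 heavy chain Slc3a2 had 81.4 CPM at day +7 and 83.8 CPM at day +14 (0.041), and its light chain Slc7a5, the leucine carrier LAT1, had 15 and 15.2 CPM (0.016 [-0.092, 0.12]). Both lay below the all-gene median of 0.20. Slc7a5 had 17.4 and 11.6 CPM in CD4 cells (-0.55 [-1.01, -0.086]) and 14.9 and 14.8 CPM in CD8 cells (-0.0047 [-0.12, 0.11]), and with equal weight of the 4 crossed gates its ratio was -0.17. In CD4 cycling cells and in CD4 non-cycling cells, 0 amino acid members, Slc7a5 included, had an interval below 0. Slc3a2 had ratios of -0.02 in CD4 and 0.038 in CD8 cells. Slc7a6, another CD98 light chain (y+LAT2), was higher at day +14, with 6.92 and 11.2 CPM (0.63). The ratio of Slc7a6 was 0.64 [0.49, 0.78] in CD8 cells and -0.12 [-0.66, 0.42] in CD4 cells. The further light chains Slc7a7, Slc7a8 and Slc7a11 (the cystine carrier xCT) were under the limit with 110, 47 and 76 UMIs. Slc38a9, a lysosomal arginine carrier and sensor, had 13.2 and 17.3 CPM (0.37), with 0.26 in cycling and 0.79 in non-cycling cells. Slc38a10 had 22.5 and 26.1 CPM (0.21), and the non-carrier Slc7a6os had 15.5 and 15.3 CPM (-0.016).

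Within the Slc25 family, the most counted carriers barely moved between days. Slc25a5 and Slc25a4 exchange ADP for ATP across the inner membrane, and Slc25a3 carries phosphate. Slc25a5 had 628 and 667 CPM (0.088 [0.07, 0.10]), Slc25a3 had 555 and 575 CPM (0.051) and Slc25a4 had 345 and 338 CPM (-0.031 [-0.055, -0.007]). Slc25a4 and Slc25a5 are close paralogs, and how reads that fit both were assigned is not given in the sources used here. All of these ratios lay below the all-gene median, and those of Slc25a5 and Slc25a3 changed sign with the processing. With equal weight of the 4 crossed gates the ratio of Slc25a5 was -0.07, and as a mean of per-cell CPM it was 0.0084. Scaled by the median ratio of all genes, it was -0.13 for Slc25a5 and -0.16 for Slc25a3. Slc25a11, the oxoglutarate carrier, had 76.8 and 80.7 CPM, and Slc25a39, a glutathione carrier, 37.4 and 42.4 CPM. The ratio of Slc25a11 (0.069) also depended on the processing. It was 0.26 with equal weight of the 4 crossed gates and -0.14 when scaled by the median ratio of all genes.

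Slc25a13, which exchanges aspartate for glutamate in the malate and aspartate shuttle, had the highest day ratio of the Slc25 members, with 6.86 CPM at day +7 and 13.4 CPM at day +14 (0.87 [0.74, 1.00]). Its partner Slc25a12 had 22.3 and 25.7 CPM. Slc25a1, the citrate carrier, had 8.71 and 14.3 CPM, with ratios of 0.78 in CD4 and 0.60 in CD8 cells. Mitoferrin 1 (Slc25a37), which brings iron into mitochondria, had 7.45 and 12.6 CPM (0.69), and mitoferrin 2 (Slc25a28) 13.5 and 18.2 CPM (0.40). Slc25a51, the NAD carrier, had 15.8 and 21.3 CPM (0.41). Slc25a17, a peroxisomal carrier of coenzyme A and adenine nucleotides, had 24.7 and 34.3 CPM (0.46).

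The pyrimidine nucleotide carriers Slc25a33 and Slc25a36 went opposite ways. Slc25a33 lies on chromosome 4 (149744036 to 149774277, minus strand) and had the lowest day ratio of the 110 members, with 25.8 CPM at day +7 and 15.4 CPM at day +14 (-0.70 [-0.80, -0.61]). Its ratio was -0.63 in cycling and -0.88 in non-cycling cells, and -0.72 in CD8 and -0.33 [-0.81, 0.15] in CD4 cells. Slc25a36 had 9.89 and 17.1 CPM, with ratios of 0.81 in CD4, 0.66 in CD8, 0.69 in cycling and 0.84 in non-cycling cells. The carnitine carrier Slc25a20 had 21.5 and 19.4 CPM (-0.14), and the orphan carrier Slc25a53 had 7.32 and 5.50 CPM (-0.36).

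Among the nucleoside and nucleotide sugar carriers (19 members, median day ratio 0.33), the nucleoside carriers were higher at day +14. Slc29a1, the equilibrative nucleoside carrier ENT1, had 25.4 and 37.2 CPM (0.54), and Slc28a2, a sodium-coupled carrier of purine nucleosides, had 12.9 and 21.0 CPM (0.66). With equal weight of the 4 crossed gates these ratios were 0.31 and 0.46, and scaled by the median ratio of all genes 0.33 and 0.45. The nucleotide sugar family Slc35 had a median of 0.28, with 13 of 17 members above 0 and 11 above the all-gene median. The interval lay above 0 for 12 of them and below 0 for 3. Slc35c2, a Golgi protein linked to fucosylation, had 23.0 and 17.1 CPM (-0.40), and Slc35b1, which brings ATP into the endoplasmic reticulum, had 54.4 and 47.8 CPM. Slc35b1 had a ratio of -0.45 [-0.72, -0.18] in CD4 and -0.16 [-0.22, -0.089] in CD8 cells. The CMP-sialic acid carrier Slc35a1 had 9.96 and 13.3 CPM (0.38).

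The 12 zinc carriers had a median ratio of 0.24. Slc39a6 (ZIP6) had 17.1 CPM at day +7 and 26.4 CPM at day +14 (0.60), and the intracellular zinc carrier Slc30a9 had 14.6 and 21.5 CPM (0.53). Slc39a14, which also imports iron, had 9.03 and 6.63 CPM. Its ratio was -0.51 [-0.67, -0.35] in CD8 cells and 0.40 [-0.14, 0.94] in CD4 cells, and -0.50 in cycling and 0.21 in non-cycling cells. Slc11a2 (DMT1), another importer of iron, had 9.58 and 7.56 CPM (-0.31), and the phosphate importer Slc20a1 had 20.4 and 29.2 CPM.

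The 11 members of families that carry sodium, protons, chloride and bicarbonate had a median of 0.48. Slc4a7, a sodium and bicarbonate cotransporter, had 25.8 and 37.7 CPM (0.53), with 0.92 [0.64, 1.2] in CD4 and 0.46 [0.37, 0.54] in CD8 cells. The anion exchanger Slc4a2 had 10.9 and 15.7 CPM (0.48). In this group the endosomal proton exchanger Slc9a9 had 8.08 and 7.71 CPM (-0.061), and the scaffold gene Slc9a3r1 had 103 and 98.6 CPM (-0.057).

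The 8 carriers of sugars, monocarboxylates and fatty acids had a median of 0.52 and the widest span, from Slc2a8 to Slc16a11. Slc27a4, which takes up long-chain fatty acids, had 6.96 and 14.4 CPM (0.95). Slc2a8, an intracellular glucose carrier (GLUT8), had 10.1 and 7.18 CPM (-0.45), with ratios of -0.68 in CD4 and -0.43 in CD8 cells. Slc37a4, which moves glucose 6-phosphate into the endoplasmic reticulum, had 7.2 and 11.2 CPM (0.57). The 4 carriers left out of the rule included Slc16a3 with 9.14 and 50.4 CPM (2.34) and Slc2a1 with 11.6 and 27.6 CPM (1.18). Slc2a3 had 33.6 and 45.8 CPM (0.44), and Slc16a1 had 14.0 and 13.6 CPM (-0.037).

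The 4 carriers of vitamins, choline and inositol had a median of 0.53, with Slc5a3 the highest and the choline transporter-like gene Slc44a2 the lowest (55.8 and 54.2 CPM, -0.042). Slc19a1 had 5.80 and 10.7 CPM. The 7 members of Slc6, Slc15, Slc36 and Slc43 had a median of 0.36, and the 8 members of further families had a median of 0.35. Slc6a6, the taurine carrier, had 26.0 and 36.4 CPM (0.47), and Slc50a1, a sugar carrier, 67.9 and 81.0 CPM (0.25).

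Between cycling and non-cycling cells, 4 members were at least 2-fold higher in cycling cells on both days, Slc43a3, Slc7a5, Slc25a10 and Slc29a1. That is 3.64% of members, against 7.2% of all genes, and 0 members were at least 2-fold lower, against 0.954% of all genes. The 4 were named after their values were seen, but Slc29a1 and Slc7a5 were also named by rule. Slc43a3, known as a carrier of purine nucleobases, had 19.3 CPM in cycling and 3.76 CPM in non-cycling cells at day +7, and 23.8 and 4.17 CPM at day +14. These are log2 ratios of 2.09 [1.69, 2.49] and 2.26 [1.75, 2.80]. Slc7a5 had 17.3 against 4.40 CPM at day +7 (1.76 [1.38, 2.15]) and 16.8 against 4.37 CPM at day +14 (1.73 [1.22, 2.26]).

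Slc25a10, the dicarboxylate carrier, had 9.62 against 0.966 CPM at day +7 (2.43 [1.90, 2.89]) and 10.1 against 2.78 CPM at day +14 (1.56 [0.97, 2.15]). Slc29a1 had 28.8 against 11.6 CPM (1.24) and 40.9 against 15.1 CPM (1.38). Slc7a1 came close, with 0.91 [0.63, 1.2] and 1.11 [0.78, 1.44]. The CD98 heavy chain Slc3a2 did not go with its light chain Slc7a5, since it was lower in cycling cells, with 79.7 against 88.5 CPM at day +7 and 81.4 against 99.2 CPM at day +14. The erythroid marker sum moved between these gates, with 18.8 CPM in cycling and 2.9 CPM in non-cycling cells at day +7 but 14.7 and 19.4 CPM at day +14. Erythroid barcodes themselves held 53.4 and 99.3 CPM of Slc43a3, 39.9 and 45.8 CPM of Slc7a5, 81.2 and 84.0 CPM of Slc29a1 and 16.2 and 7.64 CPM of Slc25a10, and their part in the result was not tested.

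In thinned cells the same contrast was seen as a share of cells. A Slc7a5 UMI was found in 5.05% of cycling and 1.59% of non-cycling cells at day +7, and in 4.80% and 0.852% at day +14. The shares in erythroid and myeloid barcodes, which express the gene, were 7.92% and 2.04%. Median depth before thinning was 11948 and 6485 UMIs in cycling and non-cycling cells at day +7, and 11123 and 5453 at day +14, and 16.7%, 3.03%, 16.5% and 2.07% of these cells had a UMI without thinning. For Slc43a3 the thinned shares were 6.50% and 1.44% at day +7 and 7.66% and 1.58% at day +14. The erythroid and myeloid barcodes, which express the gene, had 15.8% and 12.2%, above the cycling T cells on both days.

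**Figure D4:**
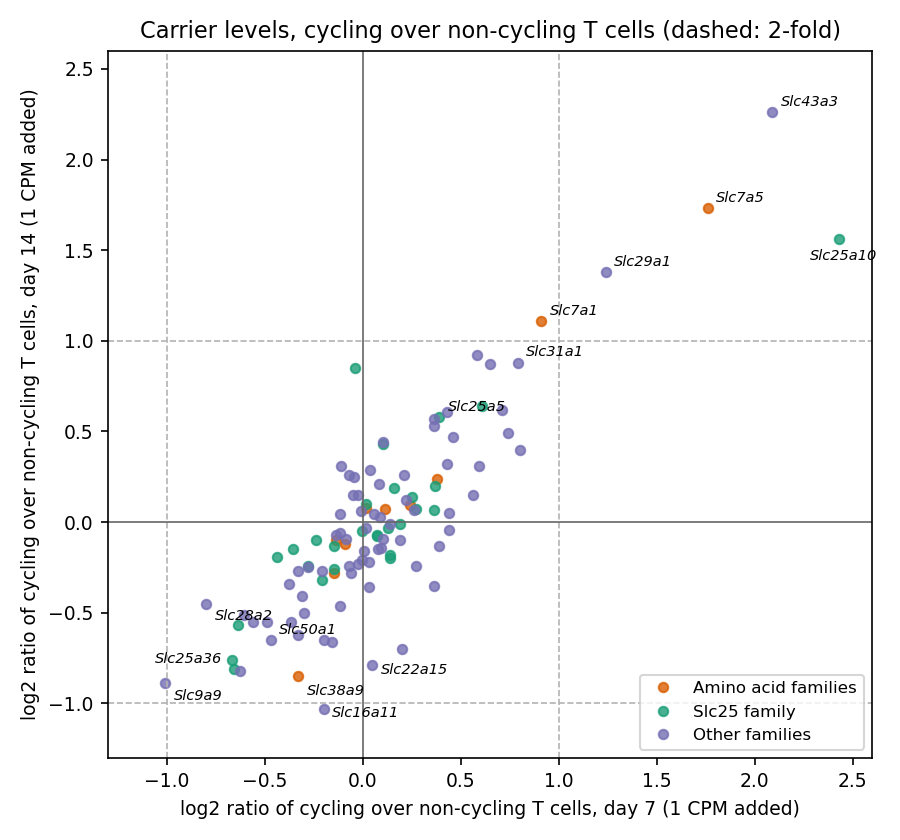
Log2 ratio of cycling over non-cycling T cells (1 CPM added) for each of the 110 members at day +7 (x axis) and day +14 (y axis), coloured by family, with dashed lines at 2-fold. Slc43a3, Slc7a5, Slc25a10 and Slc29a1 lie beyond both dashed lines at the upper right, and most other members lie within 2-fold of 0 on both days.

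The interval lay above 0 on both days for 20 members (18.2%, against 30.5% of all genes) and below 0 on both days for 16 (14.5%, against 20.7%). Among those above 0 were Slc25a5 (0.39 and 0.58), Slc25a4 (0.16 and 0.19), the copper importer Slc31a1 (0.79 and 0.88), Slc35b1 (0.43 and 0.32), Slc35b2, which carries the sulfate donor PAPS (0.59 and 0.31), and Slc35a4 (0.43 and 0.61). Lower in cycling cells were Slc28a2 (-0.80 and -0.45), Slc9a9 (-1.01 and -0.89), Slc25a36 (-0.66 and -0.81), Slc50a1 (-0.47 and -0.65), Slc44a2 (-0.38 and -0.34) and the magnesium carrier Slc41a1 (-0.63 and -0.82). The nucleoside carriers thus lay on opposite sides, Slc29a1 higher and Slc28a2 lower in cycling cells. Slc16a11 had log2 ratios of -0.20 [-0.72, 0.29] at day +7 and -1.03 [-1.29, -0.76] at day +14.

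For 9 members (8.18%, against 15.5% of all genes) the day ratio intervals of cycling and non-cycling cells did not overlap. Besides Slc16a11, Slc22a15, Slc26a2 and Slc39a14 these were Slc25a3, Slc25a5, Slc25a11, Slc25a32 and Slc38a9. Slc25a5 had a ratio of 0.10 [0.081, 0.12] in cycling and -0.10 [-0.17, -0.029] in non-cycling cells. In the crossed gates it was 0.12 [0.10, 0.14] in CD8 cycling, 0.0061 [-0.079, 0.091] in CD4 cycling, -0.055 [-0.14, 0.025] in CD8 non-cycling and -0.35 [-0.59, -0.11] in CD4 non-cycling cells. Slc25a11 had 0.028 [-0.026, 0.082] in cycling and 0.37 [0.20, 0.54] in non-cycling cells. Slc25a32, which carries folate and FAD, had 0.13 [-0.011, 0.27] and -0.76 [-1.32, -0.21]. These intervals cover counting error only, so the difference between gates was not tested.

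Between CD4 and CD8 cells, the largest ratios held on both days were those of Slc9a9 and Slc15a3, both higher in CD4 cells. On both days 0 members were at least 2-fold higher in CD4 cells, against 0.893% of all genes, and 0 were at least 2-fold higher in CD8 cells, against 0.599%, shares at which about 1 or no member would be counted. In non-cycling cells alone the counts were 1 and 2, against 1.03% and 1.19% of all genes. The interval lay above 0 on both days for 12 members (10.9%, against 10.6% of all genes) and below 0 for 4 (3.64%, against 8.91%). The members that follow were picked after their values were seen, except Slc4a7, Slc48a1, Slc25a12, Slc25a24, Slc25a4, Slc36a3os, Slc20a1, Slc35a4 and Slc35b1, which the rule named. Slc9a9 stood at 16.6 CPM in CD4 and 7.27 CPM in CD8 cells at day +7, and at 14.4 and 6.80 CPM at day +14 (log2 ratios 1.09 [0.76, 1.41] and 0.98 [0.63, 1.31]).

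Slc15a3, a lysosomal carrier of histidine and peptides, had 9.94 against 4.75 CPM at day +7 (0.93) and 16.9 against 4.87 CPM at day +14 (1.61 [1.28, 1.93]). It is also a gene of myeloid barcodes, and the myeloid marker sum was 29.6 CPM in CD4 and 63.5 CPM in CD8 cells at day +7, and 62.0 and 57.0 CPM at day +14, so its part in the result at day +14 was not tested. The zinc importer Slc39a4 (ZIP4) had 9.53 against 5 CPM and 13.8 against 6.98 CPM (0.81 and 0.89). Slc25a13 had 10.7 against 6.65 CPM and 24.6 against 12 CPM (0.62 and 0.97). Slc25a1 had ratios of 0.51 and 0.70, Slc5a3 of 0.77 and 0.77, and Slc43a2, a carrier of branched-chain amino acids and phenylalanine, of 0.44 and 0.91. Smaller were the ratios of the heme carrier Slc48a1 (0.38 and 0.42), Slc4a7 (0.28 and 0.74), Slc25a12 (0.31 and 0.27) and Slc25a24, an ATP-Mg and phosphate carrier (0.43 and 0.059). The interval of Slc25a24 did not lie above 0 on both days, and this gene also stood above T cells in myeloid barcodes.

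Lower in CD4 cells on both days were Slc27a4 (4.26 against 7.37 CPM and 8.07 against 15.1 CPM, log2 ratios -0.67 and -0.83), Slc25a33 (-0.82 and -0.43), Slc36a3os (-0.79 and -0.58) and Slc25a4 (-0.19 and -0.21). Slc20a1 had -0.33 and -0.11 and Slc35a4 had -0.42 and -0.24, and their intervals reached 0 at day +14. Slc35b1 had -0.064 and -0.36, and its interval reached 0 at day +7.

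**Figure D5:**
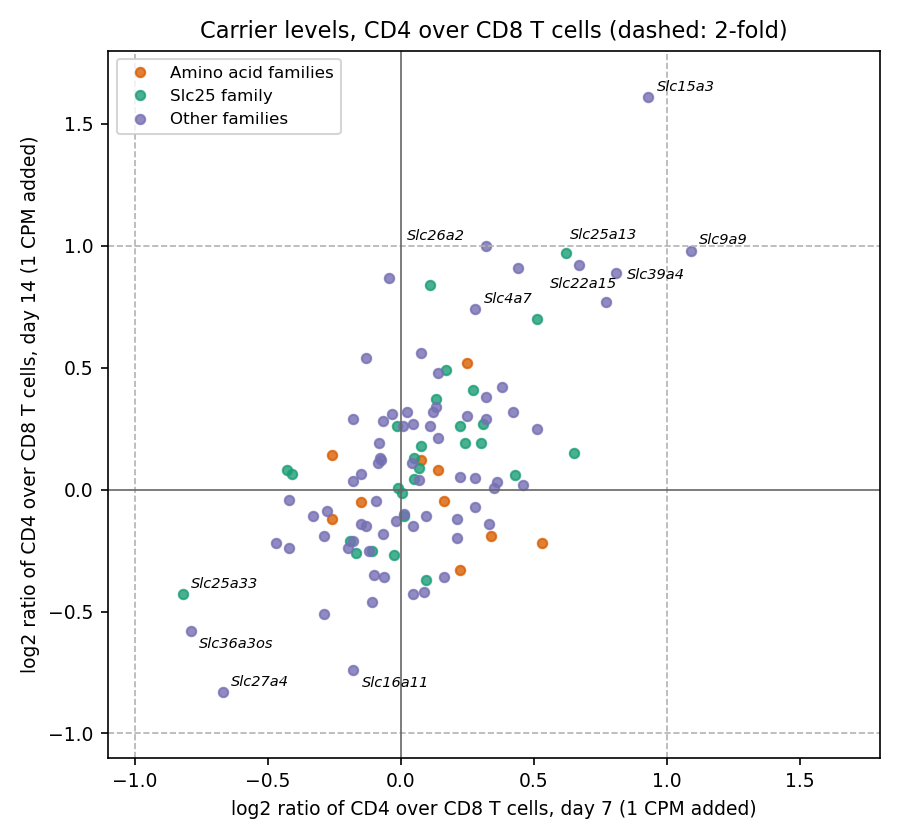
Log2 ratio of CD4 over CD8 T cells (1 CPM added) for each of the 110 members at day +7 (x axis) and day +14 (y axis), coloured by family, with dashed lines at 2-fold. No point lies beyond 2-fold on both days; Slc9a9 comes nearest at 1.09 and 0.98, and Slc15a3 has the highest day +14 value at 1.61.

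For 11 members (10%, against 15.5% of all genes) the day ratio intervals of CD4 and CD8 cells did not overlap. Besides Slc1a5, Slc7a6, Slc38a2, Slc4a7, Slc39a14 and Slc15a3 these were Slc26a2, Slc25a5, Slc25a14, Slc35b3 and Slc39a3. Slc26a2 had a ratio of 1.57 [1.13, 2.02] in CD4 and 0.89 [0.75, 1.03] in CD8 cells. Slc25a5 had -0.13 [-0.20, -0.052] in CD4 and 0.12 [0.10, 0.14] in CD8 cells. Of the amino acid carriers, glutamine carriers were on both sides of this split, Slc1a5 with the higher ratio in CD8 cells and Slc38a2 with the higher ratio in CD4 cells. For Slc38a2 this did not hold in non-cycling cells (-0.18 [-0.63, 0.27] in CD4 and 0.043 in CD8 cells).

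Compared with the other cells in the libraries, 11 members (10%, against 10.6% of all genes) were above T cells in erythroid barcodes on both days and 6 (5.45%, against 7.18%) in myeloid barcodes. The erythroid set included Slc25a37, Slc25a38, which carries glycine for heme synthesis, Slc11a2, Slc48a1 and Slc19a1, along with Slc7a5, Slc29a1 and Slc43a3. The myeloid set was Slc15a3, Slc25a24, Slc27a4, Slc35a5, Slc35e1 and Slc6a6.

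Lists of genes that work beside the carriers were read in the same way. Of 11 amino acid response genes, 8 had at least 1000 UMIs, and their median day ratio was 0.39 with 7 of 8 above 0, as were 6148 of all 8178 genes. In CD4 cells the median was 0.08 with 4 of 8 above 0, against 0.17 and 5574 of 8178 for all genes. The other 3, under the limit, were lower at day +14: Chac1 (-0.26 [-0.39, -0.088]), Trib3 (-0.41 [-0.61, -0.19]) and Sesn2 (-0.46 [-0.65, -0.27]). Their T cell levels were 0.316 and 0.0971 CPM for Chac1 (26 and 8 UMIs), 0.876 and 0.413 for Trib3, and 3.94 and 2.6 for Sesn2. At such levels the 1 CPM added makes the ratios understate the difference. Of 11 mitochondrial channel and pore genes all had at least 1000 UMIs, with a median of -0.016, and 6 of 7 ion pump genes had a median of 0.032. Above the all-gene median of 0.20 lay 2 of the 11 channel and pore genes and 3 of the 6 ion pump genes. Of the Slc25 members, 14 of 28 lay above it. The ion pump genes thus went both ways, from -0.37 to 0.53. Between cycling and non-cycling cells the amino acid response list had median ratios of 0.67 at day +7 and 1.06 at day +14, with 4 of 8 genes (Asns, Psat1, Phgdh and Shmt2) at least 2-fold higher on both days. In the same list 2 genes had intervals below 0 on both days, Ddit3 (-0.41 and -0.95) and Ddit4 (-0.54 and -0.67). The medians over all genes were 0.055 and 0.041, and 7.2% of all genes were at least 2-fold higher in cycling cells on both days.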

How the data were processed

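Per the labels and the methods, the authors aligned both libraries with Cell Ranger 6.1.2 to mm10 and deposited filtered matrices of UMI counts per gene and barcode, which are whole-number counts, not normalized. Their own filters, doublet scores and normalization were run after these files. Here barcodes were kept by the study's stated limits (500 to 7500 genes, at most 15% mitochondrial UMIs). T cells were gated by receptor genes (at least 15 UMIs per 10000, with other-lineage genes under 50 per 10000), and counts were summed by library and gate with Python 3.11.15, numpy 2.4.6, pandas 2.3.3 and scipy 1.17.1. Doublet scores came from Scrublet in scanpy 1.11.5, run on each library. Erythroid barcodes had at least 20 UMIs per 10000 of erythroid genes, and myeloid barcodes at least 200 per 10000 of neutrophil and macrophage genes, both with receptor genes under 15 per 10000. Cells between the cycling and the non-cycling gate, and cells positive for both CD4 and CD8 or for neither, were left out of those comparisons.

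Each ratio is the log2 of CPM plus 1 CPM, with an exact binomial 95% interval. It understates the change of genes with few UMIs. With 1 library a day no test or p-value is given, and a gene counts as past 2-fold only by the size of its ratio, read against the 8178 genes with at least 1000 UMIs. Total depth was 82191244 and 82414008 UMIs in T cells. Interval coverage was checked on simulated data, and no value of that check is given here. Members, gene lists, motifs and gates were chosen with earlier results of these data known. Named members were the 5 with the most UMIs in each family group, the 8 highest and 8 lowest day ratios and the 5 largest gate ratios in each direction among members at 20 CPM or more, the CD98 heterodimer and the ADP/ATP carriers. All others are named after their values were seen. Positions come from GENCODE vM21 and upstream sequences from RefSeq (both GRCm38, the build of mm10). Alternatives covered the pseudocount, scaling, UMI limit, T cell gate, mitochondrial limit, thinning, weighting of gates and doublet scores. Values of 2 members are not reported here.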

Additional observations from a re-analysis of the deposited data

Results flagged for a closer look

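Slc25a5, the ADP/ATP carrier with the most UMIs, had day ratios of opposite sign in 2 pairs of gates. It was 0.10 in cycling and -0.10 in non-cycling cells, and -0.13 in CD4 and 0.12 in CD8 cells. The intervals exclude 0 in each of these gates. With the gates crossed, the interval lay below 0 in CD4 non-cycling cells alone (-0.35 [-0.59, -0.11]), reached 0 in CD4 cycling (0.0061 [-0.079, 0.091]) and CD8 non-cycling cells (-0.055 [-0.14, 0.025]) and lay above 0 in CD8 cycling cells. The difference between gates was not tested, since each day has 1 library. All of these ratios lie below the all-gene median of 0.20.

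Some solute carrier genes under the limit of 1000 UMIs had most of their UMIs outside the T cell gate. These were Slc25a21 (93.6% of 251 UMIs), Slc22a23 (92.2% of 51), Slc38a5 (86.8% of 205), Slc45a3 (67.3% of 55), Slc43a1 (63.4% of 183), Slc40a1 (55% of 865) and Slc7a7 (50.9% of 110). Slc38a5, a glutamine carrier, had 57.6 CPM (47.9 to 68.6) in erythroid barcodes at day +7 and 91.6 CPM (47.4 to 160) at day +14, against 0.304 and 0.0243 CPM in T cells. Slc25a21, the oxoadipate carrier, had 71.5 and 68.7 CPM in erythroid barcodes, against 0.195 and 0 CPM in T cells. Slc40a1, the iron exporter ferroportin, was in both erythroid (38.5 and 68.7 CPM) and myeloid barcodes (55.8 and 57.6 CPM). Slc43a1 had 36.7 and 30.5 CPM in erythroid barcodes, and Slc22a23 and Slc45a3 had 13.9 and 6.50 CPM there at day +7 and 0 UMIs at day +14.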

How the results depend on the processing

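Day ratios were recomputed for 42 members, those named by the rule and those past 2-fold between days or higher in cycling cells. Further members described above, such as Slc25a13, Slc25a36, Slc27a4 and Slc2a8, were not among them. Of the 42, 30 kept the sign of their day ratio under every alternative recomputed for them, the 6 past 2-fold and Slc25a33 among them. Of 420 recomputed ratios, 307 stayed within the counting interval and 113 moved beyond it, and 18 values of the other 12 members had the opposite sign, 10 of them under scaling by the median ratio. The ratios of those 12 were at most 0.22 in size. Scaled by the median ratio of all genes (a shift of 0.21), the median day ratio became 0.13 over all members, 0.07 over amino acid, 0.0075 over Slc25 and 0.16 over other members. Without the non-carrier Slc7a6os, an alternative added after seeing the data, the amino acid median became 0.35. The count of members at least 2-fold higher was 3 with 5 CPM added (1.39% of all genes) and 1 of 40 members with at least 3000 UMIs (1.72% of all genes at that limit), against 5 to 9 under all other alternatives (1.6% to 3.4% of all genes). With a limit of 300 UMIs, 1 gene of 149 was at least 2-fold lower (1.69% of all genes at that limit). Over the alternatives the day ratio ranged from 1.56 to 3.31 for Slc16a11, 1.36 to 1.94 for Slc22a15, 1.01 to 1.90 for Slc37a2, 0.79 to 1.36 for Slc5a3, 0.77 to 1.41 for Slc12a2, 0.78 to 1.39 for Slc26a2 and -0.90 to -0.59 for Slc25a33. With equal weight of the 4 crossed gates the ratio also moved by over 1.5 times for Slc1a5 (0.53 to 0.31), Slc7a6 (0.63 to 0.35), Slc29a1 (0.54 to 0.31), Slc43a3 (0.36 to 0.22), Slc35a4 (0.27 to 0.17), Slc25a17 (0.46 to 0.72) and Slc50a1 (0.25 to 0.39). In non-cycling cells alone, 1 member was at least 2-fold higher in CD4 (Slc25a1) and 2 in CD8 cells (Slc16a11, from 0 CD4 UMIs at day +7, and Slc25a33), against 1.03% and 1.19% of all genes. In CD8 cells alone, 1 member (Slc9a9) was at least 2-fold higher in non-cycling cells, against 0.868% of all genes. The 4 members higher in cycling cells were the same 4 genes under each of 4 alternatives, of which the stricter T cell gate and the removal of the highest doublet scores were added after seeing the data. No paired analysis was possible because each day has 1 library, and the CD4 non-cycling gate (135 and 101 cells) limits every value taken from it.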
